A study of Mus musculus with 6 samples.

Results

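Ubiquitin-conjugating E2 enzymes were taken as all genes of the deposited count table whose name begins with Ube2, except those marked -ps as pseudogenes, which gave 40 of the 55291 genes in the table. Another 3 Ube2 names carried the -ps mark and were left out. Of the 40, GENCODE annotates 37 as protein-coding; Ube2nl and Ube2d4 are processed pseudogenes and Ube2uos is an antisense RNA of the Ube2u locus. Ube2cbp does encode a protein, one known for binding the E2 UBE2C rather than for being an E2.

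RNA was sequenced from full-grown mouse oocytes, which are large cells that store the mRNA used until the embryo's own genome is switched on. One group was labelled WT and the other KO, for deletion of Pan2, the gene of the catalytic subunit of a deadenylase that shortens poly(A) tails. The labels used here state neither strain, age, treatment, deleted exons nor a Cre line. It is not stated that each replicate is a different female, so the p-values reflect library-to-library spread that may be technical only. The values below compare WT 1 with KO 1, KO 2 and KO 3, and 1 WT library cannot show how WT oocytes vary.

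An E2 enzyme receives ubiquitin, or a related small protein such as SUMO or NEDD8, from an E1 enzyme as a thioester on a cysteine, and passes it to a substrate with the help of an E3 ligase. The E2 in use decides much of which chain is built. In oocytes the anaphase-promoting complex (APC/C), an E3, drives the removal of securin and cyclin B that lets meiosis proceed, and works with UBE2C, which starts chains, and UBE2S, which extends them. Maturing oocytes also remove stored proteins through ubiquitin, and RAD6-type E2s are needed for fertility in mice.

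The coding sequence at the active site is the feature that makes these genes one family, so it is shown here for members on which the results turn. A search of 1 reference coding transcript per gene (GENCODE, mm10) looked in frame for the codons of histidine, proline and asparagine (spelled CAT or CAC, CCN, AAT or AAC) followed, at the spacing of most E2s, by a cysteine codon (TGT or TGC), on the coding strand only. It was found in 20 of the 37 coding members (54.1%) and in 70 of all 21747 coding genes (0.322%). Each line runs 30 bases from the proline codon to the cysteine codon, which is in capitals.
Ube2c: cccaacgtggacacccagggcaacatcTGC
Ube2s: ccaaatgtgggccccaatggcgagatcTGT
Ube2a: cctaacgtctatgcagatggtagtataTGT
Ube2b: ccaaatgtgtatgctgatggtagcataTGT
Ube2n: cctaatgtagacaagttgggaagaataTGT
Ube2m: cccaacattgacctcgagggcaacgtcTGC
Ube2f: cccaacatcacagaaacgggggaaataTGT
Ube2t: ccaaacattgattctagtggaaggattTGT
Ube2d3: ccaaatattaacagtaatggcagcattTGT
Ube2r2: cccaacatttatgagaatggagatgtaTGC
The cysteine is codon 114 in Ube2c, 95 in Ube2s, 88 in both Ube2a and Ube2b, 87 in Ube2n, 86 in Ube2t and 85 in Ube2d3. Ube2v1 and Ube2v2, whose proteins are E2 variants known to lack the catalytic cysteine, had no match, and neither had Ube2w, Ube2z, Ube2o, the Ube2q, Ube2ql, Ube2j and Ube2e genes or Ube2cbp. Ube2h, Ube2k and Ube2u held the first 3 codons without a cysteine codon at this spacing. A missing match says only that these letters are not at this place.

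The 4 libraries held 12038990 (KO 1) to 26770521 (KO 3) counts, so that 1 count was worth 0.0374 to 0.0812 CPM (counts per 1000000, with TMM library factors). For Pan2 itself, WT 1 gave 77.6 CPM and KO 1, KO 2 and KO 3 gave 44.6, 11.9 and 34.0 CPM. All KO libraries were lower, KO 1 least so, and the estimate of -1.37 on the log2 scale (SE 0.53) missed the threshold (edgeR adjusted p = 0.301). Without KO 1 the estimate for Pan2 was -1.74. That fit takes its spread from KO 2 and KO 3 alone, which stood apart for Pan2, at 11.9 and 34.0 CPM. Oocyte markers were abundant in all 4 libraries, at 2.48 to 2.86% of counts for 12 genes, against 0.00597 to 0.00902% for 12 granulosa and cumulus markers, 0.00014 to 0.000492% for 7 blood markers and 0.00161 to 0.0027% for 8 stromal, theca and endothelial markers. Of the granulosa and cumulus markers 11 of 12 had a count, with all KO libraries above WT 1 for 2 and below it for 3. Cyp19a1 stood at 13.9 CPM in WT 1 and 35.1 to 46.1 CPM in the KO libraries, Nr5a2 at 42.5 and 36.8 to 47.1 CPM, and each other gene of that list had at most 25 counts in any library. Of the blood markers 3 of 7 had a count, led by Cd68 with 33 counts in WT 1 and 37 to 109 in the KO libraries, and the 4 haemoglobin genes had 0. Of the stromal, theca and endothelial markers 5 of 8 had a count, led by Pecam1 at 14.7 CPM in WT 1 and 24.7 to 26.3 CPM in the KO libraries, and Col1a2, Col3a1 and Cdh5 had 0. The part of such cells in the results was not tested. In WT 2 the counts do not follow the gene models except on the first 90 Mb of chromosome 16; 22 of the 40 members had 0 counts there, and WT 2 is used only for the 2 members in that stretch.

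Of the 40 members, 37 had a count in at least 1 of the 4 libraries and 35 passed the filter on low counts. Ube2l6, the E2 of the interferon-induced modifier ISG15, had 0 counts in every library, as did Ube2d4 and Ube2dnl2, which allows up to 3 counts per library, or 0.112 to 0.244 CPM. Ube2d2b had 2 counts in WT 1 and none in the KO libraries, and Ube2nl had 2 counts in KO 3 and none elsewhere. Ube2dnl1 passed the filter on 2, 2, 12 and 7 counts in WT 1, KO 1, KO 2 and KO 3, a count ratio of KO to WT of 4.09 (95% exact counting interval 0.9996 to 36). That interval takes in counting error alone and not the spread between libraries. The edgeR fit gave a log2 fold change of 1.90 (SE 1.66, 95% interval -1.78 to 5.59, edgeR adjusted p = 0.683).

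Family members differed widely in level per length. Levels between genes are given as TPM, here the counts divided by the length of all merged exons in the deposited table and scaled to the same total in each library. By the mean of the 4 libraries, 10 members stood above 100 TPM, 13 from 10 to 100, 10 from 1 to 10, 4 below 1 and 3 at 0. The order was led by Ube2t, Ube2c, Ube2a, Ube2w, Ube2g1, Ube2d3 and Ube2b, and the group above 100 TPM also held Ube2h and Ube2k. Most steps in this order were smaller than the spread: of 36 neighbouring pairs, 3 had ranges over the libraries that did not overlap, namely Ube2k above Ube2g2, Ube2e2 above Ube2v1 and Ube2v1 above Ube2dnl1.

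**Figure D1:**
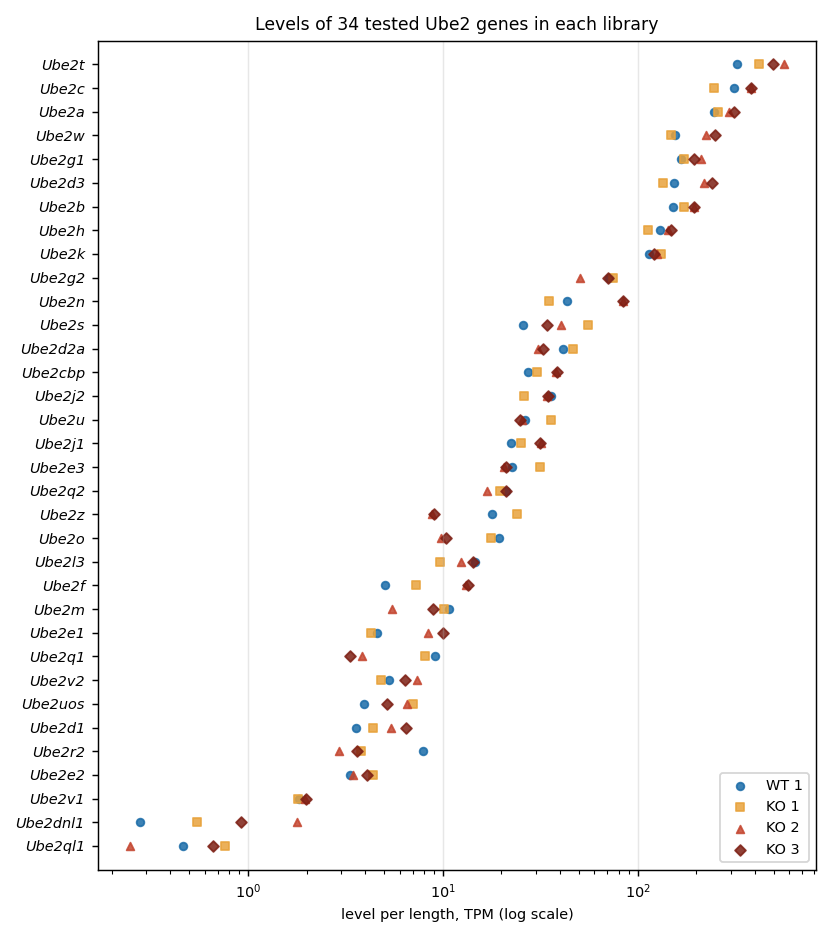
Level per length (TPM, log axis) of 34 Ube2 genes that passed the low-count filter, with 1 point for each of WT 1, KO 1, KO 2 and KO 3, ordered by the mean of the 4 libraries. Levels run from Ube2t at 322 to 562 TPM down to Ube2ql1 at 0.249 to 0.764 TPM, and the 9 highest genes shown lie above all others shown in every library.

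Ube2t was the most abundant. It encodes the E2 of the Fanconi anaemia pathway, which works with the E3 FANCL in the repair of DNA crosslinks, and its level was 322 TPM in WT 1 and 419, 562 and 497 TPM in KO 1, KO 2 and KO 3. Its mean was 450 TPM ± 103 (SD, n = 4 libraries). This order depends on the length used, since Ube2d3 has 24499 bases of merged exons and a longest coding transcript of 3833 bases. With the longest coding transcript as the length, chosen after the data were seen, Ube2t remained the highest with 1449 TPM ± 330, Ube2d3 moved from rank 6 to rank 2 with 886 TPM ± 242, and Ube2w came next with 326 TPM ± 83.3 (SD, n = 4 libraries each).

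Against this range of levels, no member passed the test between KO and WT 1. By edgeR's quasi-likelihood test with Benjamini-Hochberg adjustment over all 17799 genes tested, 0 of 35 members rose or fell, where 344 genes, or 1.93%, were called in all (235 or 1.32% higher in KO, and 109 or 0.612% lower). In bulk libraries fewer cells of a type and less RNA per cell cannot be told apart. At an unadjusted p under 0.05 there were 2 members, Ube2r2 and Ube2f, where 13.3% of all genes stood under that value. DESeq2 and limma-voom also called 0 members. The median log2 fold change of the tested members was 0.19, with 25 above 0 and 10 below, beside a median of 0.02 over all genes, of which 51.3% were above 0.

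The intervals show what these libraries could resolve. Among the tested members 32 had an estimated change of less than 2-fold, and the 95% interval lay wholly within 2-fold either way for 12 of the 35. For the rest a 2-fold difference in at least 1 direction was not excluded by the interval. All 3 KO libraries lay on one side of WT 1 for 20 members, 13 above and 7 below, or 57.1% of those tested. Among all genes tested the share was 58.3%, with 29.1% above and 29.2% below.

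**Figure D2:**
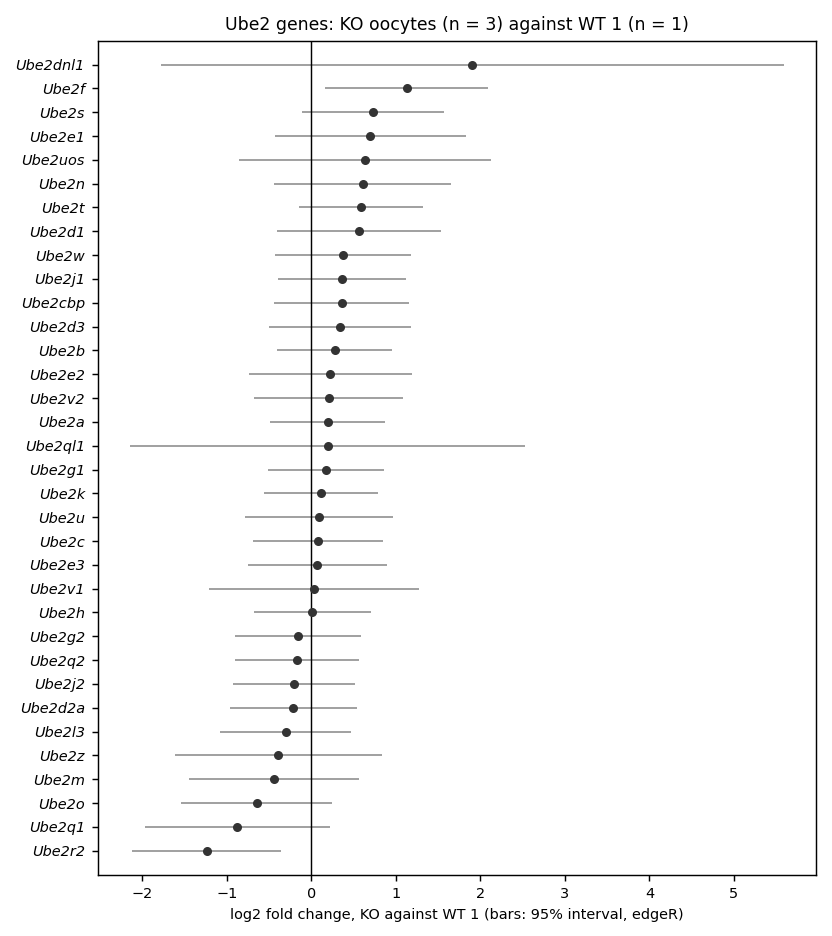
Log2 fold change of KO (n = 3) against WT 1 (n = 1) for 34 tested Ube2 genes, with 95% intervals from the edgeR fit. The interval includes 0 for 32 of the 34 genes shown; Ube2r2 at -1.24 and Ube2f at 1.13 are the exceptions, and neither passed after adjustment.

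Of the APC/C enzymes, Ube2c (chromosome 2, 164769898 to 164778822 in mm10, plus strand), whose product starts chains on APC/C substrates, stood at 326 CPM in WT 1 and at 256, 400 and 378 CPM in KO 1, KO 2 and KO 3. KO 1 lay below WT 1 and the other KO libraries above it, and the log2 fold change was 0.08 (SE 0.35, 95% interval -0.69 to 0.85, edgeR adjusted p = 0.952). Ube2s (chromosome 7, 4794546 to 4812590, minus strand), whose product extends those chains, stood at 53.2 CPM in WT 1 and at 114, 84.0 and 67.4 CPM in KO 1, KO 2 and KO 3. All KO libraries were above WT 1, the highest being KO 1, with a log2 fold change of 0.73 (SE 0.38, 95% interval -0.10 to 1.57, edgeR adjusted p = 0.443). Per length, Ube2c exceeded Ube2s 12.1-fold in WT 1 and 4.45-, 9.4- and 11.1-fold in KO 1, KO 2 and KO 3. With the longest coding transcript as the length the ratio was smaller, at 3.47 in WT 1 and 1.27, 2.69 and 3.17 in the KO libraries, still above 1 in each. The exons of Ube2s share 217 bases with Rpl28 on the opposite strand, which had 23245 counts over the 4 libraries against 6354 for Ube2s. Those of Ube2c overlap Tnnc2 on the opposite strand, which had 0 counts over the 4 libraries against 30003 for Ube2c. No source used here says whether counting used strand.

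The RAD6 homologues Ube2a and Ube2b, which ubiquitinate histone H2B and the replication clamp PCNA, each varied little across the 4 libraries. Ube2a was the higher in every library. Ube2a, which lies on the X chromosome, stood at 225 CPM in WT 1 and at 234, 268 and 270 CPM in the KO libraries, in the order KO 1, KO 2 and KO 3 that is kept below. Ube2b stood at 129 CPM in WT 1 and at 146, 167 and 158 CPM. Both genes had all KO libraries slightly above WT 1, with log2 fold changes of 0.20 (SE 0.31) and 0.28 (SE 0.31) and edgeR adjusted p of 0.831 and 0.747. The ratio of Ube2a to Ube2b per length was 1.63 in WT 1 and 1.5, 1.5 and 1.6 in the KO libraries. Their coding sequences, each of 459 bases, were 77.6% identical and shared no stretch of 100 bases.

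Ube2n encodes the E2 that builds the signalling chains used in DNA damage tolerance and in innate immune pathways, and works only with an E2 variant, UBE2V1 or UBE2V2. Ube2n stood at 73.7 CPM in WT 1 and at 58.8, 142 and 136 CPM in the KO libraries, so that KO 1 lay below WT 1 and KO 2 and KO 3 well above it. The estimate for KO against WT was 0.61 on the log2 scale (SE 0.47), with an edgeR adjusted p of 0.640. Ube2v2 stood at 15.1 CPM in WT 1 and at 13.6, 21.1 and 17.4 CPM, and Ube2v1 at 2.01 CPM and at 1.95, 2.15 and 2.06 CPM. Neither variant separated the groups (log2 fold changes 0.21 and 0.03, SE 0.40 and 0.56, edgeR adjusted p = 0.867 and 0.987). Per length the catalytic gene exceeded Ube2v2 by 7.28- to 13.2-fold and Ube2v1 by 19.5- to 42.7-fold over the 4 libraries, and Ube2v2 exceeded Ube2v1 by 2.67- to 3.76-fold. With the longest coding transcript as the length these ranges were 4.69 to 8.5, 15.9 to 35 and 3.39 to 4.78. The exons of Ube2v1 share 210 bases with Gm11476 on the opposite strand, which had 1645 counts over the 4 libraries against 175 for Ube2v1. They also overlap exons of Gm20431 on the same strand, which had 0 counts over the 4 libraries. The part of these overlaps in the low level of Ube2v1, and so in its ratios to Ube2n and Ube2v2, was not tested.

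Among E2s of ubiquitin-like modifiers, 0 passed. NEDD8, which activates cullin ligases, has 2 E2s: UBE2M acts mainly with RBX1-bound cullins, and UBE2F with RNF7-bound CUL5. Ube2f (chromosome 1, 91250304 to 91290337, plus strand) stood at 17.9 CPM in WT 1 and at 25.7, 46.6 and 45.3 CPM in the KO libraries, all above WT 1. Its log2 fold change was 1.13 (SE 0.43, 95% interval 0.17 to 2.09), unadjusted p = 0.0257 and edgeR adjusted p = 0.288. Ube2m stood at 10.2 CPM in WT 1 and at 9.5, 5.18 and 8.0 CPM, all below it, giving -0.44 ± 0.45 (log2 fold change ± SE; edgeR adjusted p = 0.731). The ratio of Ube2m to Ube2f per length was thus 2.14 in WT 1 and 1.39, 0.417 and 0.664 in the KO libraries. Ube2z, whose product carries ubiquitin and the modifier FAT10, stood at 28.8 CPM in WT 1 and at 38.4, 14.2 and 13.7 CPM, with KO 1 above WT 1 and the other KO libraries below (edgeR adjusted p = 0.811).

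**Figure D3:**
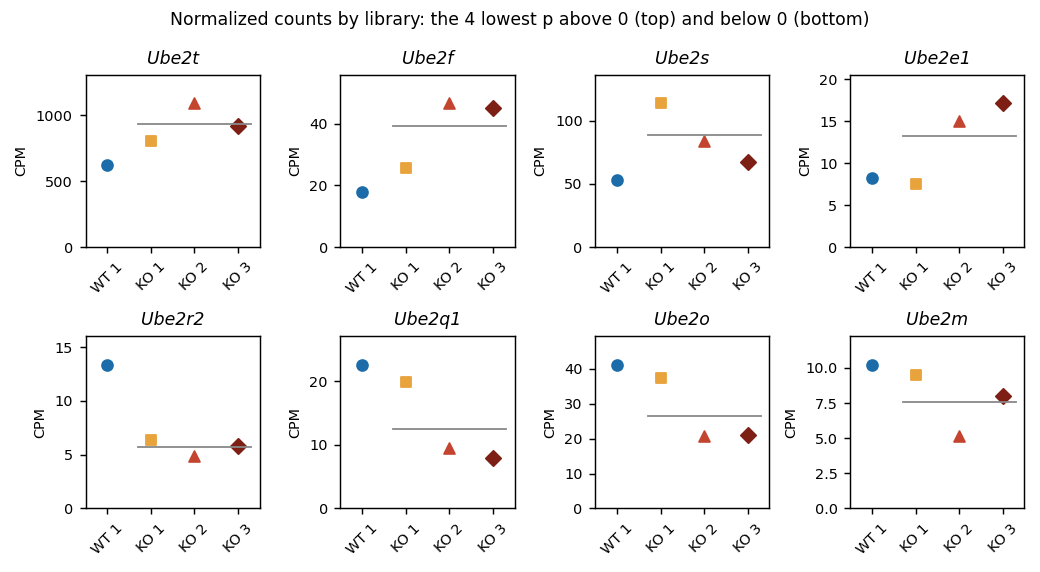
Normalized counts (CPM, linear axes from 0) in WT 1, KO 1, KO 2 and KO 3 for the 4 Ube2 genes with the lowest p above 0 (Ube2t, Ube2f, Ube2s, Ube2e1) and the 4 below 0 (Ube2r2, Ube2q1, Ube2o, Ube2m); the grey line is the mean of the 3 KO libraries. None passed after adjustment; in Ube2r2 the 3 KO libraries lie together at 4.92 to 6.33 CPM, while in Ube2q1 and Ube2o KO 1 lies near WT 1.

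The remaining ubiquitin E2s held the member with the lowest p. Ube2r2 (chromosome 4, 41135743 to 41193380, plus strand) encodes a CDC34-type E2 that extends chains on substrates of cullin-RING ligases. It stood at 13.4 CPM in WT 1 (320 counts) and at 6.33, 4.92 and 5.80 CPM in the KO libraries (78, 110 and 155 counts). The KO libraries lay close together, at 5.68 ± 0.716 CPM (SD, n = 3), and all below WT 1. The log2 fold change was -1.24 (SE 0.40, 95% interval -2.12 to -0.36), with an unadjusted p of 0.0106 and an edgeR adjusted p of 0.191.

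Ube2q1, the gene of a large E2 with an extended amino-terminal part that is needed for full female fertility in mice, stood at 22.7 CPM in WT 1 and at 19.9, 9.56 and 7.93 CPM in the KO libraries. Ube2o, which encodes a combined E2 and E3 that marks unassembled proteins such as orphan ribosomal subunits, stood at 41.1 CPM and at 37.3, 20.8 and 20.9 CPM. In both, KO 1 was close to WT 1 and KO 2 and KO 3 were at about the same lower level; the log2 fold changes were -0.87 (SE 0.49) and -0.65 (SE 0.40), with edgeR adjusted p of 0.493 and 0.536. Ube2t stood at 626 CPM in WT 1 and at 805, 1092 and 918 CPM, all above it, giving 0.58 ± 0.33 (log2 fold change ± SE; edgeR adjusted p = 0.493). Ube2k, Ube2h, Ube2q2 and Ube2u were between -0.17 and 0.12 on the log2 scale, and Ube2ql1 had 6 to 18 counts per library.

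The UBE2D and UBE2E enzymes are broad-purpose E2s that serve many RING ligases, and UBE2W adds ubiquitin to the amino terminus of proteins. Of their 8 tested genes 7 had a log2 fold change above 0, with a median of 0.36, and 0 passed. Ube2d3 dominated the counts of the family, with 1503 CPM in WT 1 and 1309, 2145 and 2255 CPM in the KO libraries (log2 fold change 0.34, SE 0.38, edgeR adjusted p = 0.751). Ube2d2a, its close paralogue, had an estimate below 0, with 193 CPM in WT 1 and 213, 143 and 144 CPM (log2 fold change -0.21, SE 0.34, edgeR adjusted p = 0.835). The coding sequences of this pair are 86.3% identical over 444 bases. Per length Ube2d3 exceeded Ube2d2a 3.68-fold in WT 1 and 2.9-, 7.09- and 7.39-fold in the KO libraries. With the longest coding transcript as the length it did so 5.04-fold and 3.97-, 9.73- and 10.1-fold. The exons of Ube2d2a overlap those of Gm50371 on the same strand, which had 0 counts over the 4 libraries. Those of Ube2d3 overlap 4930539J05Rik on the opposite strand, which had 32 counts. The part of these overlaps in the ratio was not tested. Ube2w stood at 308 CPM in WT 1 and at 290, 443 and 467 CPM (log2 fold change 0.38, SE 0.36, edgeR adjusted p = 0.712). Ube2e1 stood at 8.19 CPM and at 7.55, 15.0 and 17.1 CPM (log2 fold change 0.70, SE 0.51, edgeR adjusted p = 0.609), and its exons share 789 bases with Nkiras1 on the opposite strand, which had 15789 counts over the 4 libraries against 1082 for Ube2e1.

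E2s of endoplasmic reticulum quality control, which mark misfolded proteins for degradation, had a median log2 fold change of 0.01. Ube2g1 stood at 308 CPM in WT 1 and at 316, 388 and 341 CPM in the KO libraries (log2 fold change 0.18, SE 0.31, edgeR adjusted p = 0.854). By mean TPM it was at rank 5 with merged exons as the length, level with Ube2d3 (187 TPM each), and at rank 7 with the longest coding transcript. The others were Ube2g2, Ube2j1 and Ube2j2, with log2 fold changes of -0.15, 0.37 and -0.20 (SE 0.33, 0.34 and 0.32). None of the 4 passed, with or without KO 1. Among the odd names, Ube2cbp had log2 fold change 0.36 (SE 0.36) and Ube2uos, with 21 to 36 counts per library, 0.63 (SE 0.67), and neither passed.

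The values of many members split between KO 1 on one hand and KO 2 and KO 3 on the other. Without KO 1, 12 of the 35 members passed (8 higher, 4 lower in KO), or 34.3%. Of 17498 genes 28.1% were called in that fit, 15.4% higher and 12.7% lower. They included Ube2f, Ube2n, Ube2e1, Ube2d3, Ube2w, Ube2t and Ube2s above 0, and Ube2r2, Ube2q1, Ube2o and Ube2z below 0. In that fit the spread comes from KO 2 and KO 3 alone. The log2 fold change of Ube2f was then 1.36 (edgeR adjusted p = 4.35e-07), that of Ube2q1 -1.37 (adjusted p = 2.76e-05), that of Ube2n 0.92 (adjusted p = 3.14e-05) and that of Ube2z -1.04 (adjusted p = 0.000635). Ube2r2 had nearly the same estimate without KO 1 (-1.31, adjusted p = 0.000759) as with it (-1.24). No member passed without KO 2 or without KO 3.

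**Figure D4:**
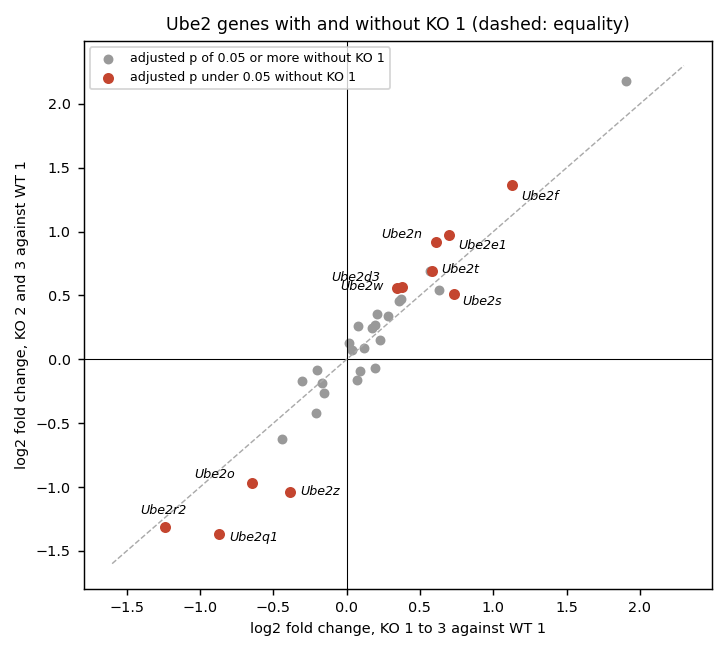
Log2 fold change of 34 tested Ube2 genes against WT 1 with KO 1 to 3 (horizontal) and with KO 2 and KO 3 alone (vertical); red points have an edgeR adjusted p under 0.05 without KO 1. None of the 11 red points passed with KO 1 included, and all of them except Ube2s lie further from 0 on the vertical axis.

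Summed over the family, the share of all counts showed the same split. WT 1 had 0.520% (95% Wilson interval 0.517 to 0.523%) and KO 1 had 0.521% (0.517 to 0.525%). KO 2 had 0.656% (0.653 to 0.659%) and KO 3 had 0.661% (0.658 to 0.664%). Such intervals take in counting error alone, as amplified reads need not be separate molecules. WT 1 and KO 1 thus overlapped within counting error, while KO 2 and KO 3 lay above both. The mean of the KO libraries was 0.612 ± 0.0796% (SD, n = 3). This sum is weighted to the abundant members and does not describe each of them. Ube2d3 alone held 35956 of 122202 family counts in WT 1 and 60306 of 176901 in KO 3. Ube2t, the most abundant per length, had KO 1 above WT 1 (805 against 626 CPM). Of the 35 tested members 10 had a log2 fold change below 0. The ribosomal RNA gene CT010467.1 took 2.48% of the WT 1 counts and 1.49, 0.554 and 0.565% of those of KO 1, KO 2 and KO 3; its part in the split was not tested.

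The 2 members within the first 90 Mb of chromosome 16 could be set against both WT libraries, with CPM scaled over the 437 genes tested there. Ube2l3 (chromosome 16, 17152013 to 17202649, minus strand), whose product serves HECT and RING-between-RING ligases, stood at 1476 in WT 1, 862 in WT 2 and 952, 1243 and 1330 in the KO libraries. WT 1 was above and WT 2 below all KO libraries, so that the WT pair enclosed the KO values. The estimate for KO against WT was 0.01 on the log2 scale (SE 0.34), with an edgeR adjusted p of 0.992, against -0.30 (SE 0.35) with WT 1 alone. Ube2v2 stood at 648 in WT 1, 452 in WT 2 and 577, 902 and 728 in the KO libraries. Its groups overlapped, with an estimate of 0.42 ± 0.34 (log2 fold change ± SE; edgeR adjusted p = 0.623). Of the 437 genes 7 were called, or 1.6%. The exons of Ube2l3 share 2760 bases with Ydjc on the opposite strand, which had 362 counts over the 4 libraries other than WT 2 against 2599 for Ube2l3.

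Genes on either side of the E2 step were also examined. Of 123 genes in 7 lists, 117 were tested and 0 passed (edgeR), where 1.93% of all genes did. An unadjusted p under 0.05 was found for 7, or 5.98%, beside 13.3% of all genes; limma-voom called 0, and DESeq2 called Rnf216 and Aktip (DESeq2 adjusted p = 0.0129 and 0.0409). The median log2 fold changes were 0.16 for 9 tested E1 enzymes, 0.31 for 9 E2 or E2-like genes with other names, -0.07 for 18 modifiers, -0.14 for 29 HECT and U-box ligases, -0.50 for 14 RING-between-RING ligases, -0.28 for 16 SUMO ligases and proteases and -0.14 for 22 partner genes of neddylation, RAD6 and the APC/C. Without KO 1, 40 of 118 passed, or 33.9%, where 28.1% of all genes did.

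**Figure D5:**
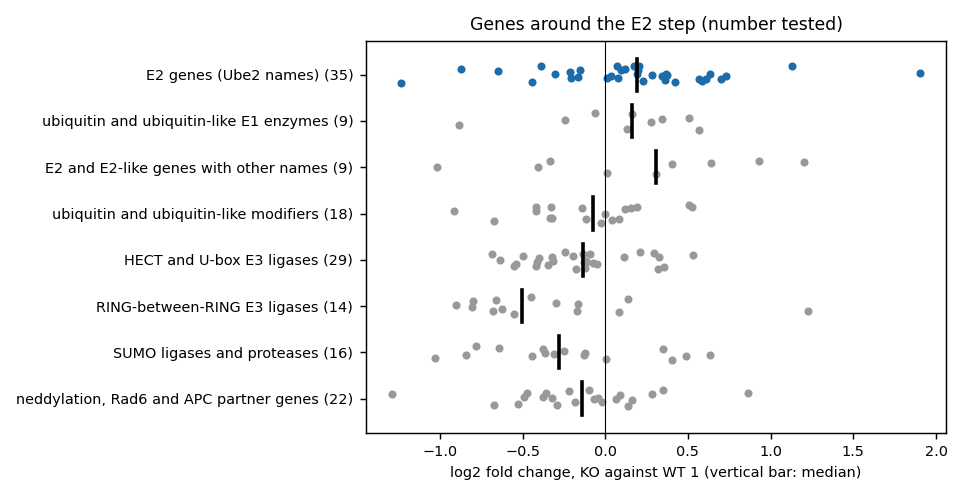
Log2 fold change of KO against WT 1 for the Ube2 genes and for 7 lists of genes that act before, beside or after them, 1 point per tested gene, with the vertical bar at the list's median. The Ube2 genes have a median of 0.19 and the RING-between-RING ligases the lowest, at -0.50; 0 genes of any list passed by edgeR, while DESeq2 called Rnf216 and Aktip.

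In each list the gene with the lowest p was as follows. Rnf216, a RING-between-RING ligase gene, stood at 77.9 CPM in WT 1 and at 189, 183 and 174 CPM in the KO libraries (log2 fold change 1.23, SE 0.32, edgeR adjusted p = 0.105). Cdc34b, a second gene for the CDC34 type of E2 and so a relative of Ube2r2, stood at 201 CPM and at 104, 94.1 and 99.1 CPM (log2 fold change -1.02, SE 0.28, edgeR adjusted p = 0.128). Rnf216 and Cdc34b both had KO libraries close together and apart from WT 1. Cdc34, in the same list as Cdc34b, did not separate the groups. It stood at 69.5 CPM in WT 1 and at 85.2, 42.5 and 37.9 CPM in the KO libraries (log2 fold change -0.335, SE 0.443). Uspl1, a SUMO protease gene, stood at 44.6 CPM and at 19.1, 17.5 and 29.1 CPM (edgeR adjusted p = 0.258). Smurf2, a HECT ligase gene, stood at 134 CPM and at 89.3, 78.7 and 81.3 CPM (edgeR adjusted p = 0.345). Uba2, the catalytic subunit gene of the SUMO E1, stood at 60.4 CPM and at 62.2, 90.4 and 115 CPM (edgeR adjusted p = 0.586). Traf6, an E3 gene that works with UBE2N, and Urm1, a modifier gene, were below 5 CPM in every library, with edgeR adjusted p of 0.324 and 0.472.

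Since the deleted gene acts on poly(A) tails, the annotated 3' ends of the members were searched for the cytoplasmic polyadenylation element (TTTTAT or TTTTAAT, sense strand, last 150 bases), through which CPEB proteins lengthen tails in maturing oocytes. It was present in 5 of 32 members with a 3' UTR of that length (15.6%), where 23.5% of 18221 genes held it. The hexamer AATAAA or ATTAAA was within the last 50 bases in 29 of the 32, and in 75.9% of all genes. TTTTAAT can overlap AATAAA by its last letters. They included Ube2t, Ube2d3, Ube2g2 and Ube2q2, of which Ube2t and Ube2d3 are among the 10 most abundant members. A stretch of 30 bases of each of these 2 is shown, with the element in capitals.
Ube2t: tttgTTTTATttatcttgtacatatgtatt
Ube2d3: cctaTTTTATgaggaacccaatgcaagtca
In Ube2t the element starts 70 bases and the hexamer 22 bases before the annotated end. Ube2t and Ube2d3 had log2 fold changes of 0.58 and 0.34, and Ube2g2 and Ube2q2 of -0.15 and -0.17. These matches describe single reference transcripts and not the ends used in these oocytes. The libraries were primed with oligo(dT), and the part of tail length in these counts was not tested.

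Sequence shared with other genes bears on some of these counts. Of the 40 members 24 had no stretch of 100 bases in the transcripts of another gene that does not overlap them, and 7 had more than 5% of theirs elsewhere. Among these the share was 30.4% for Ube2h, with a non-coding RNA on chromosome 7, 10.5% for Ube2q2 with the pseudogene Gm4895, 8.24% for Ube2v1, 8.23% for Ube2n with Ube2n-ps1 and 5.39% for Ube2l3, besides the pseudogene Ube2nl. No source used here states how reads with several matches were counted. Ube2n-ps1 itself held 6 to 35 counts per library, where Ube2n held 724 to 3623.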

How the data were processed

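The authors deposited raw counts per gene for 5 oocyte libraries, with exon coordinates, per the file headers. The libraries were made by a Smart-seq2 protocol with oligo(dT) priming and amplification, per the labels' protocols. Reads were processed with Trim Galore 0.6.7, STAR 2.7.10a and featureCounts 2.0.2 on mm10, per the submitters' processing notes; the notes used here name no annotation release, strand setting or handling of multiply mapped reads. Groups came from sample titles. The count table used here held no column for WT 3, so WT 3 was not analysed.

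The main test was edgeR 4.0.16 in R 4.3.3 (quasi-likelihood, robust=TRUE, TMM, filterByExpr, threshold 0.05 after Benjamini-Hochberg adjustment over all genes tested), fitted to the whole table for WT 1 against 3 KO libraries; this takes the spread of WT oocytes to equal that among KO libraries. Fits with DESeq2 1.42.0 and limma-voom 3.58.1 were alternatives. The 95% intervals come from the fitted SE and degrees of freedom. All 40 members matched GENCODE by name with identical coordinates. Values in every library are given for the 5 highest levels, the 4 lowest p on each side of 0, 4 role groups (APC/C, RAD6, UBE2N with its variants, ubiquitin-like modifiers) and the chromosome 16 members, with a few others chosen after their values were seen. The edgeR fit alone was tried on simulated counts. Their changes were larger than any member's estimate and their spread was the same in both groups, so smaller changes and unequal spread were not tested. The members, lists and rules were chosen with earlier results of these data known. 1 member is left out of the named values and figures and is not reported here.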

Additional observations from a re-analysis of the deposited data

How the results depend on the processing

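The count of 0 members called was the same in every alternative run except without KO replicate 1; over the 3 fits that leave out a KO library it ranged from 0 to 12. The count over all genes moved from 344 to 654 with DESeq2 run on all 28291 genes with a count (against 17799 tested by edgeR), 868 without a filter on low counts, 126 at a mean of at least 5 CPM, 545 at an adjusted p of 0.1, and 344 became 425 to 4923 when a KO library was left out. In the lists around the E2 step the counts without 1 KO library ranged from 0 to 2 for E1 enzymes, 0 to 7 for E2 genes with other names, 0 to 6 for modifiers, 0 to 8 for HECT and U-box ligases, 0 to 3 for RING-between-RING ligases, 0 to 7 for SUMO genes and 0 to 7 for partner genes, and DESeq2 gave 1 in each of the second and the fifth of these. Of 189 alternative values for 19 named members, 175 kept direction and side of the threshold, 11 passed it (all without KO replicate 1) and 3 changed sign: Ube2c, which ranged from -0.046 to 0.258 with 1 KO library left out (negative without KO replicate 2), and Ube2v1, at -0.006 with library size alone and -0.005 to 0.072 with 1 KO library left out (negative without KO replicate 2). With the longest coding transcript as length, Ube2t stood at 1449, Ube2w at 326 and Ube2g1 at 162 TPM. The cause of these changes was not tested.

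No paired analysis was possible because WT 1 and the KO libraries share 1 replicate number; on the first 90 Mb of chromosome 16, where WT 2 could be used, the replicate block gave log2 fold changes of -0.051 for Ube2l3 and 0.42 for Ube2v2 and changed no call. There, the deviations of libraries with the same number from their group means had correlations of -0.0511 and -0.096. With 2 WT libraries these deviations mirror each other, so the values cannot show whether such libraries share more than a number. Leaving out 1 library in that fit, which was chosen after the data were seen, gave -0.252 to 0.483 for Ube2l3, negative without WT 2, KO 2 or KO 3, and 0.254 to 0.738 for Ube2v2, with no call. The depth limits what can be said of the members under 1 TPM.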
